A study of Mus musculus with 12 samples.

Results

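Wnt/beta-catenin signalling was followed through 48 genes, chosen by name as ligands, receptors, intracellular components, transcription factors, inhibitors and targets of the pathway. Their rows were found by matching Ensembl identifiers to GENCODE M21, which matched 48 of 48 among the 54232 identifiers counted. Of these, 47 held enough counts to be tested. Messenger RNA of the cortex was counted in 12 C57BL/6J mice aged 12 weeks, with 1 library per mouse. Of the mice, 6 were wild type and 6 were Tbl1xr1 Y446C/Y446C homozygotes, and either genotype had 3 females and 3 males. The labels name no drug or other manipulation. The counts come from whole pieces of cortex, so fewer cells of a type and less RNA per cell cannot be told apart.

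Wnt proteins are secreted lipid-modified ligands that bind Frizzled receptors together with the co-receptors Lrp5 and Lrp6. Without a ligand, a complex of Axin, Apc and Gsk3b marks beta-catenin (Ctnnb1) for destruction; with one, Dishevelled proteins are recruited, beta-catenin accumulates and binds TCF/LEF factors at genes such as Axin2. Tbl1xr1 is a subunit of the NCoR/SMRT corepressor complexes and is known as a cofactor of beta-catenin in the nucleus, so the comparison asks what its mutation does to the messages of the pathway. In the adult forebrain the pathway is known for roles at synapses and vessels, and Tcf7l2 and Lef1 are known as factors of thalamic neurons.

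Totals assigned to genes were 21238427 to 32669138 in 11 libraries and 3748515 in female mutant 3. That library also had 31.6% mitochondrial counts against 5.23% to 10.4% in the others, and 17349 genes with a count against 24346 to 26012. It gave the lowest value of 32 of the 47 tested members (68.1%) and of 46.2% of all tested genes, so results are given with and without it. In it a count of 0 allows a level of up to 1.16 counts per 1000000 (CPM, on totals scaled by TMM), and 4 members stood at 0. The message of Tbl1xr1 itself was 105 ± 7.05 CPM in wild types and 93.5 ± 2.69 in mutants (SD, n = 6 each). Its log2 fold change was -0.17 (95% interval -0.32 to -0.025, edgeR quasi-likelihood unadjusted p = 0.0251, adjusted p = 0.950). In the 11 other libraries it was -0.18 (edgeR unadjusted p = 0.00706, adjusted p = 0.488). A point mutation leaves the transcript countable. Markers of cortical excitatory neurons summed to 1007 to 1314 CPM in all 12 libraries. Within that sum female mutant 3 stood apart, with 193 CPM of Slc17a7 against 519 to 860 in the others, 318 of Neurod6 against 73.6 to 148, and 1.16 of Emx1 against 4.53 to 7.23.

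Per kilobase of exon, the level of beta-catenin was the highest of the members in wild-type cortex. Ctnnb1 stood at 73.1 ± 3.82 CPM per kilobase (SD, n = 6, as for the other wild-type levels). Dkk3, a secreted member of the Dickkopf family, followed with 62.8 ± 4.89. Apc, the scaffold of the destruction complex, had 41.8 ± 2.82, Gsk3b, its kinase, 35.5 ± 2.27, and Fzd3, the most abundant Frizzled, 18.9 ± 1.35. The wild-type libraries of these 5 genes did not meet between neighbours in the order. After them the ranges ran into each other: Dvl1 (10.6 ± 0.854 CPM per kilobase), the cell-cycle gene Ccnd1 (9.73 ± 1.10) and Dvl3 (8.85 ± 0.879) overlapped, as did the R-spondin receptor Lgr4 (6.35 ± 0.461), Lrp6 (6.16 ± 0.508) and Axin1 (5.68 ± 0.503).

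Every ligand lay below all of these genes per kilobase. Wnt7b (3.57 ± 0.751), Wnt4 (2.93 ± 0.259), Wnt7a (2.91 ± 0.654) and Wnt9a (2.77 ± 0.209 CPM per kilobase) were the highest ligands, with overlapping ranges. Tcf7l2, a TCF factor, had 3.695 ± 1.87, a wide spread for its level. At the foot of the order were Rnf43, a ligase that removes Frizzleds (0.434 ± 0.0389), Fzd5 (0.369 ± 0.119), the Wnt-binding inhibitor Wif1 (0.231 ± 0.141) and the target Sp5 (0.0367 ± 0.0330). Sp5 was listed at 0 in 3 of the 12 libraries, among them female mutant 3, where a 0 allows up to 1.16 CPM. No listed value of Sp5 passed 0.316 CPM, so it was not tested.

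**Figure D1:**
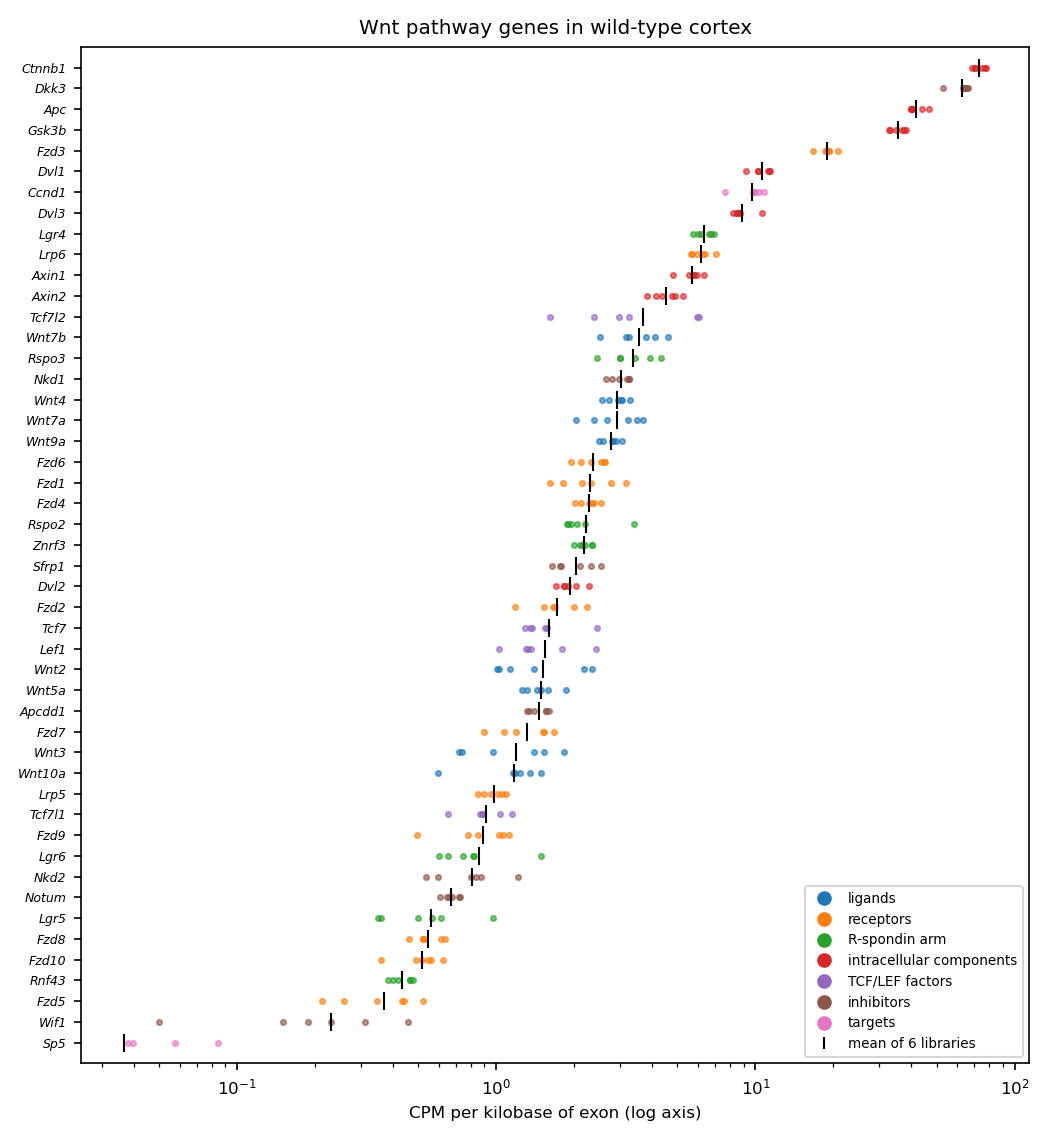
Level of each member in wild-type cortex, in CPM per kilobase of exon on a log axis, with 1 point per library (n = 6) and a black bar at the mean, coloured by role; Sp5 libraries at 0 cannot be drawn on this axis. Intracellular components and Dkk3 hold the top of the order, from Ctnnb1 at 73.1 down to Sp5 at 0.0367.

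Over both sexes, 0 of the 47 tested members passed an adjusted p of 0.05 for mutant against wild type (edgeR quasi-likelihood test with Benjamini-Hochberg adjustment over all 18016 tested genes, of which 0.00555% passed). At an unadjusted p under 0.05 there were 3 members, all lower in mutants (Lgr6, Wnt2 and Dkk3), beside 3.96% of all genes. DESeq2 called 0 members (0.161% of all genes), with 4 members and 5.54% of genes at an unadjusted p under 0.05. Limma-voom called 0 (0.00555% of genes), with 3 members and 4.34% of genes at that level. Limma-voom with library weights called 1, Dkk3 (0.122% of all genes called), with 6 members and 12.7% of genes at an unadjusted p under 0.05. Without female mutant 3, edgeR called 0 members (0.0108% of 18461 genes), with 5 members and 7.46% of genes at an unadjusted p under 0.05: Ctnnb1 and Fzd5 higher, Dkk3, Lgr6 and Wnt2 lower. There DESeq2 called 0 members (0.287% of genes) and limma-voom with library weights 0 (0.0217%). Of the 47, 17 were higher and 30 lower in mutants. Their median log2 fold change was -0.07, against -0.01 over all tested genes, of which 47.6% were higher. Without female mutant 3 the split was 20 to 27 and the median -0.04, and with scaling by library totals it was 9 to 38 and -0.14, where the median of all genes lay at -0.08. The median width of a member's 95% interval was 0.777 on the log2 scale, and 0.545 without female mutant 3.

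**Figure D2:**
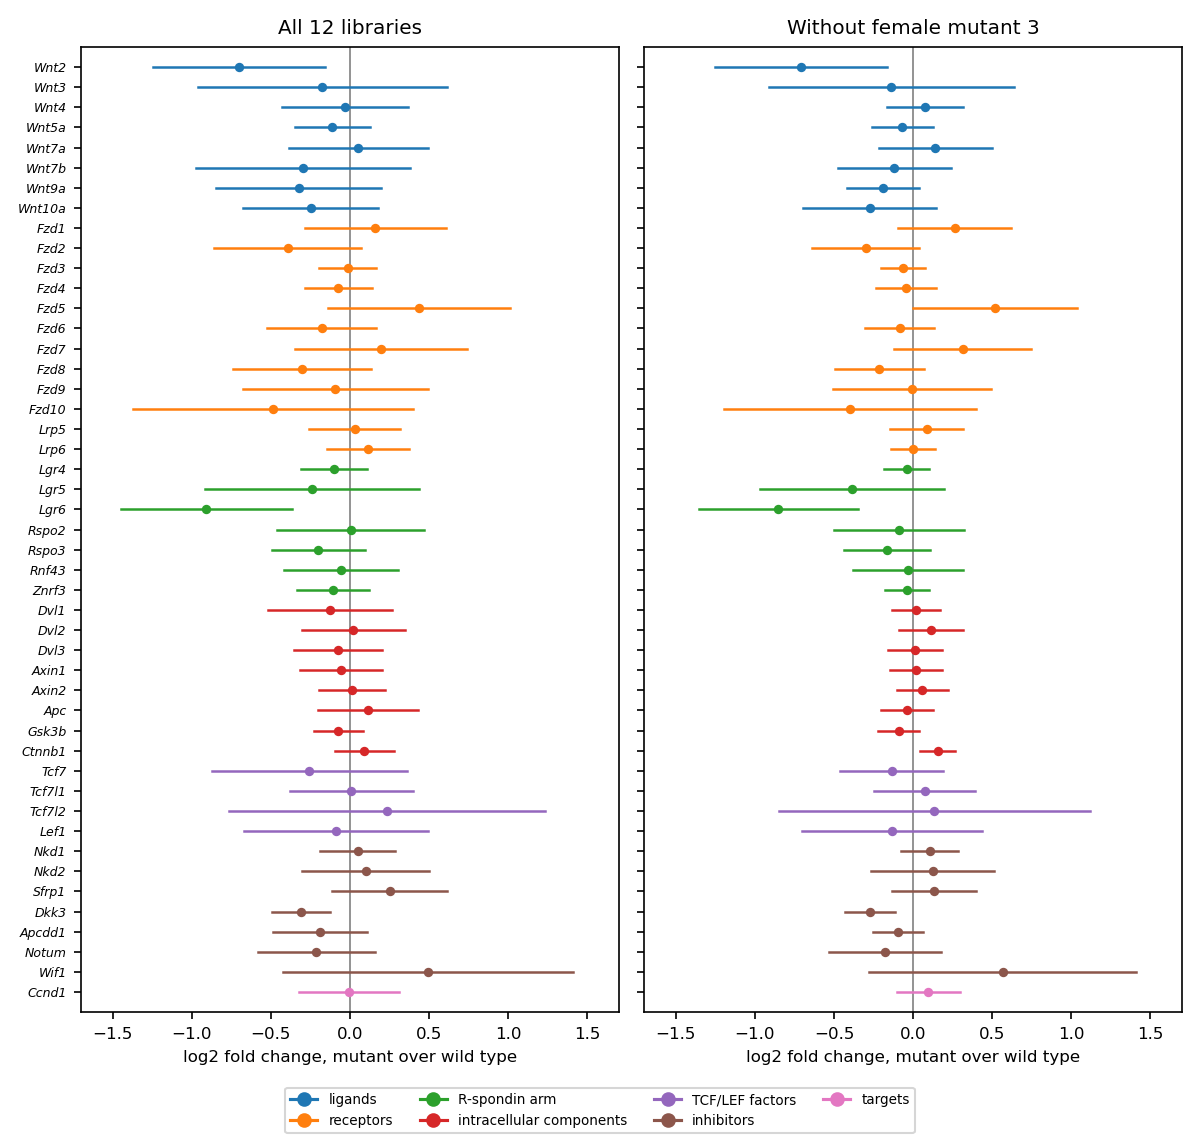
Log2 fold change of each tested member, mutant over wild type over both sexes, with 95% intervals from edgeR, for all 12 libraries (left) and without female mutant 3 (right), coloured by role. Most intervals cross 0; those of Wnt2, Lgr6 and Dkk3 lie below 0 in both panels, and that of Ctnnb1, and barely that of Fzd5, lies above 0 on the right and not on the left.

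The ligands had lower values in mutants for 7 of 8 members (median -0.21 on the log2 scale), and for 6 of 8 without female mutant 3 (median -0.13). None passed the test. Wnt2, which is best known for its part in lung and vessel development, had the largest difference among them. Its wild-type females had 2.54, 3.16 and 5.26 CPM and its wild-type males 2.27, 4.91 and 2.31. Mutant females had 1.97, 2.32 and 2.36 CPM and mutant males 2.23, 1.43 and 2.34. Of the wild types 4 stood above all mutants and the other 2 lay among them, so the groups overlapped. The means were 3.41 ± 1.34 and 2.11 ± 0.361 CPM (SD, n = 6 each), a log2 fold change of -0.70 (SE 0.25, 95% interval -1.25 to -0.16, edgeR unadjusted p = 0.0152, adjusted p = 0.950).

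The level of Wnt2 was also set beside the sum of 11 markers of neurons of the striatum, which lies beneath the cortex. The 2 libraries with the most Wnt2, female wild type 5 and male wild type 12, also had the 2 highest striatal sums, 2311 and 1567 CPM. The next 2 sums, 1466 in female mutant 3 and 1363 in male wild type 8, went with only 2.32 and 2.27 CPM of Wnt2, the latter the lowest wild type. Over the groups, the striatal sum in wild types was 646 to 2311 CPM (median 1300) and in mutants 334 to 1466 (median 756). All 11 markers had lower values in mutants (median -0.79 on the log2 scale, 0 called), and all 11 were above 3 counts in every library. With the mean of these markers as a covariate, the difference in Wnt2 was -0.25 (SE 0.23, unadjusted p = 0.300). Its part in the result was not tested further.

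Wnt9a was the other ligand with the smallest p. It had 8.27 to 10.2 CPM in wild types (median 9.33) and 0.774 to 9.84 in mutants (median 7.77), where the low value is female mutant 3 and the 5 other mutants began at 6.82. The groups overlapped, and the log2 fold change was -0.32 (SE 0.24, adjusted p = 0.950) or -0.19 without that library. Wnt7b, a ligand of vessel growth into the brain, likewise had 0.774 CPM in female mutant 3 and 11.01 to 20.6 in the other mutants. Its wild types had 12.3 to 22.6, within which all but 2 mutants fell.

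Among the 12 receptors, 5 were higher and 7 lower in mutants, with a median of -0.04 (-0.03 without female mutant 3), and none passed. Fzd2 had 4.32 to 8.23 CPM in wild types (median 6.11) and 1.16 to 6.11 in mutants (median 4.93). The groups overlapped, with a log2 fold change of -0.39 (SE 0.21, edgeR adjusted p = 0.950). The lowest mutant value, 1.16 CPM, equals the floor of female mutant 3. Leaving out each library in turn gave Fzd2 log2 fold changes of -0.52 to -0.30. Fzd5, a receptor known from eye and vessel development, went the other way, with 1.47 to 3.62 CPM in wild types and 1.55 to 5.11 in mutants. Its log2 fold change was 0.44 (SE 0.27, unadjusted p = 0.126) and 0.52 (SE 0.24, unadjusted p = 0.0498) without female mutant 3, both with edgeR, and 0.28 without female mutant 1, the library at 5.11. The co-receptors differed little: Lrp5 by 0.03 (SE 0.13) and Lrp6 by 0.11 (SE 0.12) on the log2 scale. Lrp6 had 133 CPM in female mutant 3 against 77.3 to 96.0 in the 11 others, and without that library its difference was 0.00.

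The R-spondin arm tunes how many Frizzleds remain on the cell surface: R-spondins bind Lgr receptors and hold back the ligases Rnf43 and Znrf3. Lgr6 had the largest difference of all 47 members. Wild-type females had 5.62, 4.47 and 5.10 CPM and wild-type males 5.59, 4.12 and 10.2. Mutant females had 3.93, 1.16 and 2.26 CPM and mutant males 3.05, 4.42 and 2.69. Each wild type but male 12 stood above every mutant, and male mutant 10 lay above that one, so the groups overlapped by a single pair. Female mutant 3 was the lowest of all, at 3 counts. The means were 5.85 ± 2.22 and 2.92 ± 1.17 CPM (SD, n = 6 each), and the fitted log2 fold change was -0.91 (SE 0.25, 95% interval -1.45 to -0.37, edgeR unadjusted p = 0.00316, adjusted p = 0.950). Without female mutant 3 the log2 fold change was -0.85 (edgeR adjusted p = 0.443). Leaving out male wild type 13, the library at 10.2, gave -0.69 (edgeR adjusted p = 0.965). The striatal markers as a covariate gave -1.15 (edgeR adjusted p = 0.887). DESeq2 gave Lgr6 an adjusted p of 0.161, and 0.0722 without female mutant 3. Limma-voom with library weights gave adjusted p values of 0.196 with that library and 0.242 without it.

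In this arm 6 of 7 members were lower in mutants, and 7 of 7 without female mutant 3, with medians of -0.11 and -0.09. Rspo3, an R-spondin known from vessel development, had 7.59 to 13.4 CPM in wild types (median 9.95) and 6.58 to 10.5 in mutants (median 9.11). Those ranges overlapped almost wholly (log2 fold change -0.20, SE 0.14, adjusted p = 0.950). Lgr4 and Znrf3 were close between genotypes, with log2 fold changes of -0.10 (SE 0.10) and -0.11 (SE 0.11), and Rspo2 with 0.00 (SE 0.21).

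Of the 8 intracellular components 4 were higher and 4 lower in mutants, and the widest difference in this group was -0.13, of Dvl1. With scaling by library totals 7 of the 8 were lower, and without female mutant 3, on TMM scaling, 6 were higher and 2 lower (median 0.02). Ctnnb1, the effector itself, had 404, 398 and 366 CPM in wild-type females and 356, 365 and 388 in wild-type males. Mutant females had 411, 315 and 419 CPM and mutant males 419, 423 and 437. The low mutant value is female mutant 3, and the 5 other mutants all stood above the 6 wild types. With 12 libraries the means were 379 ± 19.9 and 404 ± 44.4 CPM (SD, n = 6 each) and the log2 fold change 0.09 (SE 0.09, 95% interval -0.10 to 0.28, edgeR adjusted p = 0.950).

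Without female mutant 3, the 5 mutants had 422 ± 9.42 CPM of Ctnnb1 (SD, n = 5), and the log2 fold change was 0.16 (SE 0.05, 95% interval 0.05 to 0.27, edgeR unadjusted p = 0.00925, adjusted p = 0.495). It was then the only one of the 47 members whose genotypes did not overlap, where 1.08% of all tested genes did not; with 12 libraries 0 members and 0.438% of genes did not overlap. With the mitochondrial share as a covariate and all 12 libraries kept, the difference was 0.17 (edgeR adjusted p = 0.178). Also with 12 libraries, it was 0.01 by library totals and 0.03 with the striatal markers as a covariate. With those markers and female mutant 3 left out, it was 0.11 (SE 0.06, edgeR adjusted p = 0.927). Exons of Ctnnb1 overlap exons of Ulk4, annotated on the opposite strand, over at most 759 bases, and whether the counting used strand is not stated in the sources at hand.

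Axin2, the most widely used readout of beta-catenin activity, was level between the genotypes. Wild types had 20.95 to 28.8 CPM (median 25.03) and mutants 20.5 to 27.5 (median 25.4). The means were 24.9 ± 2.91 and 24.8 ± 2.56 CPM (SD, n = 6 each), and the log2 fold change was 0.01 (SE 0.10, edgeR adjusted p = 0.994). Its 95% interval ran from -0.20 to 0.22, so a difference within that span remains possible. The interval is not a limit of detection, and larger differences could also miss the adjusted threshold. Gsk3b had 322 to 375 CPM in wild types and 304 to 360 in mutants (log2 fold change -0.07, SE 0.07, adjusted p = 0.950). Apc had 1177 CPM in female mutant 3 and 540 to 751 in the 11 other libraries.

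**Figure D3:**
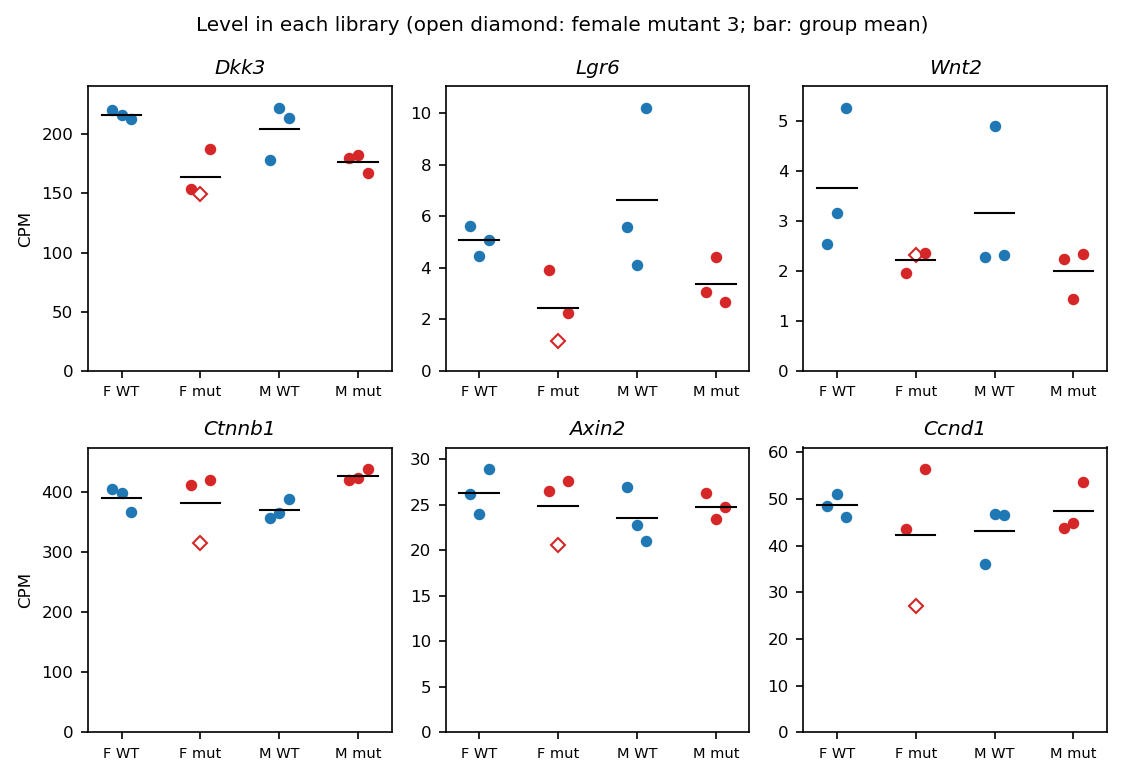
Level of 6 members in each of the 12 libraries, in CPM, by sex (F, M) and genotype (WT wild type, mut mutant), with bars at group means (n = 3) and female mutant 3 as an open diamond. Dkk3 and Lgr6 are lower in most mutants, Ctnnb1 is above every wild type in 5 of 6 mutants, and Axin2 and Ccnd1 overlap between genotypes.

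The TCF/LEF factors, which carry beta-catenin to DNA, split into 2 higher and 2 lower, and none passed. Tcf7l2 had 53.0, 26.2 and 20.8 CPM in wild-type females and 52.2, 14.1 and 28.4 in wild-type males. Mutant females had 62.2, 59.2 and 17.9 CPM and mutant males 44.3, 44.6 and 7.65. High and low libraries occurred in both genotypes and both sexes, and the spread within a group was far larger than the difference between the means, 32.4 ± 16.4 and 39.3 ± 22.1 CPM (SD, n = 6 each; log2 fold change 0.24, SE 0.46, edgeR adjusted p = 0.961). Lef1 had 8.98 to 21.2 CPM in wild types (median 11.8) and 5.96 to 17.0 in mutants (median 14.2). It overlapped in the same way (log2 fold change -0.09, SE 0.27, adjusted p = 0.973). Tcf7, the factor best known from T cells, was at 0 in female mutant 3, at 3.04 to 4.68 in the other mutants and at 3.37 to 6.43 CPM in wild types (log2 fold change -0.26, SE 0.28, adjusted p = 0.950). Its difference was -0.13 without female mutant 3 and -0.12 without female wild type 5, the library at 6.43.

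The order of the libraries in Tcf7l2 and Lef1 was nearly the order of 9 markers of thalamic neurons. The summed markers ran from 139 CPM in male mutant 27 to 556 in female mutant 3, a 3.99-fold range, and 8 of the 9 were above 3 counts in every library. Male mutant 27 was also lowest in Tcf7l2 and in Lef1. The 5 libraries highest in the markers included 4 of the 5 highest in Tcf7l2 and 5 of the 5 highest in Lef1. The markers themselves had 198 to 444 CPM in wild types (median 280) and 139 to 556 in mutants (median 348), and their median log2 fold change was 0.01 with 0 called. With the mean of these markers as a covariate, the difference in Tcf7l2 became 0.32 (SE 0.13, edgeR unadjusted p = 0.0299, adjusted p = 0.912), and 0.22 (SE 0.10, adjusted p = 0.517) without female mutant 3. That of Lef1 became -0.01 (SE 0.11). How much of each message came from thalamic tissue was not tested.

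**Figure D4:**
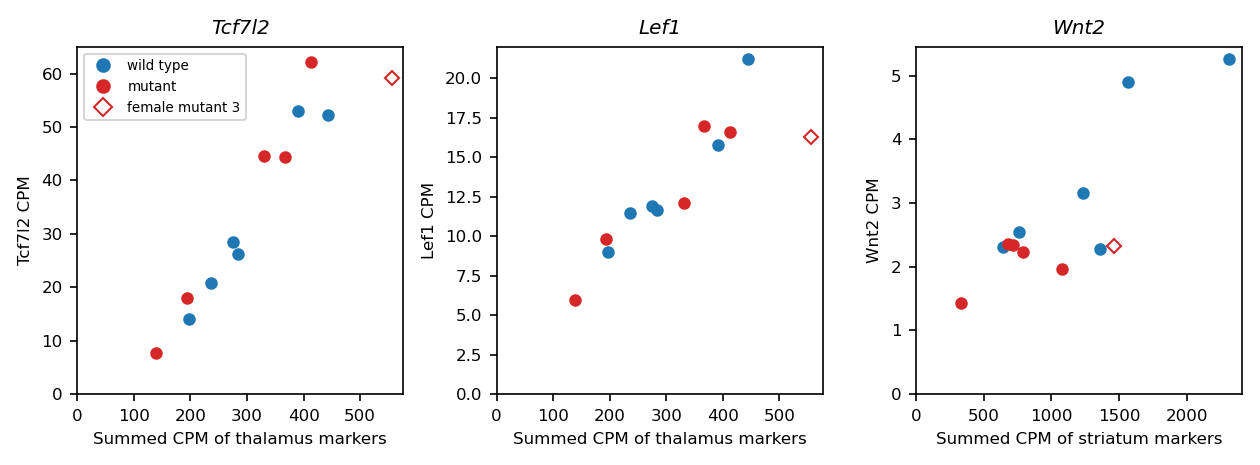
Level of Tcf7l2 and Lef1 against the summed level of 9 thalamic markers, and of Wnt2 against that of 11 striatal markers, all in CPM, with 1 point per library (n = 12), wild types blue, mutants red and female mutant 3 as an open diamond. In the first 2 panels libraries of both genotypes lie along 1 rising band; in the third, the 2 highest points are wild types with striatal sums of 2311 and 1567.

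Of the 7 members listed as inhibitors 4 were higher and 3 lower in mutants, with medians of 0.05 and, without female mutant 3, 0.10. By library totals the median was -0.02. Dkk3 had the smallest p of all members, and whether it acts as a Wnt inhibitor here was not tested. Its wild-type females had 221, 217 and 213 CPM and its wild-type males 178, 222 and 214. Mutant females had 154, 150 and 187 CPM and mutant males 180, 182 and 167. Of the 6 wild types 5 stood above every mutant, and male wild type 8 at 178 lay among them, so the groups overlapped through that library. The means were 211 ± 16.4 and 170 ± 15.7 CPM (SD, n = 6 each).

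The fitted log2 fold change of Dkk3 was -0.31 (SE 0.09, 95% interval -0.49 to -0.12), a ratio of 0.807, with an edgeR unadjusted p of 0.00315 and an adjusted p of 0.950. Without female mutant 3 it was -0.27 (edgeR adjusted p = 0.437). DESeq2 gave an adjusted p of 0.139 and limma-voom with library weights 0.0412, the only setting of those run in which a member passed; the same weights without female mutant 3 gave 0.0693. In each sex the sign was the same, with -0.40 (SE 0.12, adjusted p = 0.418) in females and -0.22 (SE 0.12, adjusted p = 0.9999) in males, both with edgeR.

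Sfrp1, a decoy that binds Wnt proteins, had 18.2 CPM in female mutant 3 and 8.23 to 10.8 in the other mutants, against 7.15 to 11.05 in wild types. Its log2 fold change was 0.25 (SE 0.17, adjusted p = 0.950) with that library and 0.13 without it. Wif1 was scarce, at 0.121 to 1.11 CPM in wild types and 0 to 1.06 in mutants. All these values lie under 1.16 CPM, the floor of female mutant 3, so that library says little of Wif1. Its log2 fold change of 0.49 was the highest of the listed inhibitors and did not pass the test. Apcdd1, an inhibitor at the membrane that is known in brain vessels, had a log2 fold change of -0.19 (SE 0.14), and -0.10 without female mutant 3. Nkd1 and Nkd2, which bind Dishevelled and are themselves Wnt targets, differed by 0.05 (SE 0.11) and 0.10 (SE 0.18).

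Ccnd1, the cyclin D1 gene and the tested member listed as a target, had 36.0 to 51.0 CPM in wild types (median 46.6) and 27.1 to 56.3 in mutants (median 44.3). The lowest mutant was female mutant 3. The log2 fold change was -0.01 (SE 0.15, edgeR adjusted p = 0.996) and 0.10 (SE 0.09, adjusted p = 0.874) without it. Neither this gene nor Axin2 differed beyond the spread between mice in either direction.

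A letter search for the core TCF/LEF motif CTTTGAT, on both strands, in the RefSeq windows of 250 bases before to 50 after each transcript start (GRCm38.p6) found it in 1 of the 35 windows of the 28 members that had one (2.86%), against 3.73% of 32851 windows over all genes. The match belongs to Sp5, a known direct target whose message was nearly absent here. It starts 104 bases before the start site, and is shown with its flanks, the motif in capitals, at chr2:70474789-70474855 on the plus strand.
Sp5: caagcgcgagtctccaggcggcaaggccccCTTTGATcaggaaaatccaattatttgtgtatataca
The match describes letters only; sites further away, such as those known for Axin2, lie outside these windows.

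Taken by sex, 0 of 47 members passed in females (0% of all genes did; 4 members and 11.8% of genes at an unadjusted p under 0.05, edgeR) and 0 in males (0% of genes; 1 member and 2.78% at an unadjusted p under 0.05). With female mutant 3 left out, 0 members passed in females (0% of genes; 4 members and 9.41% of genes had an unadjusted p under 0.05) and 0 in males (0.00542% of genes; 4 members and 8.43%). In females 12 members were higher and 35 lower in mutants, with a median of -0.17 against -0.03 over all genes, and without female mutant 3 it was 21 to 26 and -0.04. In males 22 were higher and 25 lower, with a median of -0.01. Scaling by library totals moved the median of all genes in females to -0.21 and gave 7 higher and 40 lower members. All 8 ligands were lower in females, where female mutant 3 is 1 of the 3 mutants, and 6 of 8 without that library. In males 4 of 8 were lower.

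Notum, an enzyme that inactivates Wnt proteins by removing their lipid, had 1.57, 1.56 and 1.74 CPM in wild-type females and 1.02, 0.774 and 1.18 in mutant females. The value of 0.774 CPM is female mutant 3 and lies under that library's floor of 1.16 CPM, and all these levels are low. The log2 fold change in females was -0.60 (SE 0.22, edgeR adjusted p = 0.418), and -0.55 without that library. In males Notum stood at 1.47 to 1.73 CPM in wild types and 1.61 to 1.82 in mutants. Lgr6 had the smallest p in males, with 6.64 ± 3.18 CPM in wild types and 3.39 ± 0.912 in mutants (SD, n = 3 each; log2 fold change -0.96, SE 0.35, edgeR adjusted p = 0.9999), and its value in females was -0.85 (SE 0.38, adjusted p = 0.421). Without male wild type 13 the male value of Lgr6 was -0.51, and without female mutant 1 the female value was -1.30. Wnt2 in males was at -0.67 (SE 0.36), and at -0.20 without male wild type 12, the library at 4.91 CPM.

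The difference between the sexes in the effect of genotype was tested as an interaction, and 0 of 47 members passed (0% of all genes; 2 members and 7.67% of genes at an unadjusted p under 0.05, edgeR). Leaving out female mutant 3 again gave 0 (0% of genes; 3 members and 10.6% of genes at an unadjusted p under 0.05). Fzd9, a Frizzled known from the hippocampus, had the smallest p. Wild-type females had 2.58, 2.44 and 1.94 CPM and mutant females 1.69, 0.387 and 1.396. The value of 0.387 is female mutant 3 and lies under its floor of 1.16 CPM. Wild-type males had 1.14, 1.79 and 2.35 CPM and mutant males 2.14, 2.67 and 2.38. Mutants were thus the lower group in females and mostly the higher one in males, with an interaction of -1.17 (SE 0.44, adjusted p = 0.555) or -1.04 (adjusted p = 0.459) without female mutant 3. Notum followed with -0.71 (SE 0.30) and Apc with 0.52 (SE 0.26), which was 0.23 without female mutant 3.

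**Figure D5:**
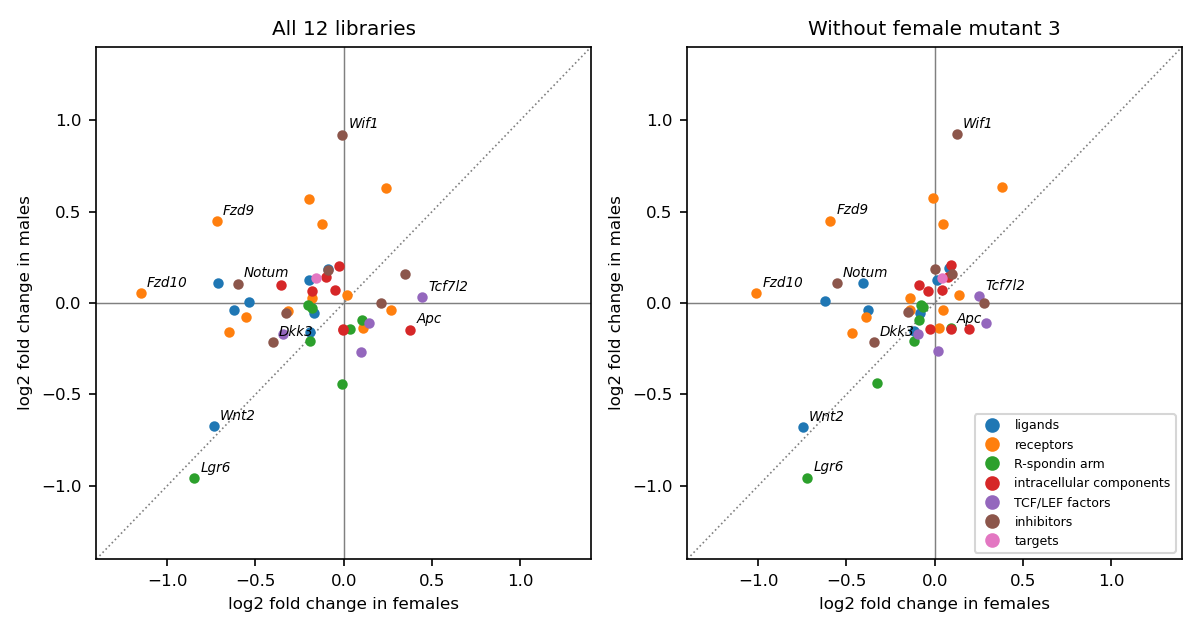
Log2 fold change of each tested member, mutant over wild type, in females (horizontal) and in males (vertical), from edgeR, with all 12 libraries (left) and without female mutant 3 (right); the dotted line marks equal values. Lgr6 (-0.85 and -0.96) and Wnt2 lie low on both axes, Fzd9 and Notum are below 0 in females and above it in males, and many points shift to the right once female mutant 3 is left out.

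Between females and males of both genotypes, 0 of 47 members passed (0.0389% of all genes did; 1 member and 1.77% of genes at an unadjusted p under 0.05, edgeR). In the 11 libraries other than female mutant 3, 0 passed (0.0433% of genes; 1 member, Tcf7, and 2.67% of genes at an unadjusted p under 0.05). With 12 libraries that member was Wnt5a, a ligand best known for signalling apart from beta-catenin, with 10.1 ± 1.52 CPM in females and 12.1 ± 1.34 in males (SD, n = 6 each; log2 fold change -0.24, SE 0.11, adjusted p = 0.897). Females ran from 7.36 to 11.7 CPM and males from 10.3 to 14.5, with overlap. Wnt7a was at 8.01 ± 2.75 and 10.5 ± 2.02 CPM (log2 fold change -0.32, SE 0.20) and Notum at 1.31 ± 0.375 and 1.67 ± 0.130 (-0.31, SE 0.17). All 3 were lowest in female mutant 3.

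Beyond the 48, a list of 86 further genes of the pathway held 72 that could be tested over both sexes, of which 22 were higher and 50 lower in mutants and 0 passed (0.00555% of all genes did). At an unadjusted p under 0.05 there were 1 higher and 6 lower, beside 3.96% of all genes, and the 6 include Tbl1xr1, the mutated gene. Their median was -0.07, equal to that of the members to 2 decimals; without female mutant 3, 30 of 74 were higher and 44 lower, with a median of -0.03, and 3 higher and 10 lower had an unadjusted p under 0.05, beside 7.46% of genes. The other ligands and secretion genes were lower in 8 of 8 tested (median -0.19), and in 7 of 9 without female mutant 3 (median -0.17). Wnt9b had 1.58 ± 0.391 CPM in wild types and 0.702 ± 0.503 in mutants (SD, n = 6 each; log2 fold change -0.96, SE 0.35). The secreted inhibitors parted: Sfrp5 had 1.56 ± 0.545 and 3.04 ± 1.06 CPM (0.95, SE 0.30), while Frzb had 15.0 ± 1.65 and 11.9 ± 2.02 (-0.32, SE 0.13). Ror2, a receptor of Wnt5a, and Pygo1, a nuclear partner of beta-catenin, were higher by 0.67 (SE 0.31) and 0.18 (SE 0.09), and Tbl1xr1 lower by 0.17 (SE 0.07). The edgeR adjusted p of each of these 6 genes was 0.950.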

How the data were processed

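RNA of 12 cortices was read as paired 150-base reads. Per the submitters' processing notes, the tools were Trimmomatic 0.36, HISAT2 2.1.0, HTSeq 0.11 and Cufflinks, on GRCm38.p6. The authors deposited raw counts per gene, whole numbers in 1 table. The sources used here state neither a strand setting nor an annotation release. In GENCODE M21, 13 members have an exon overlapping a gene on the other strand (Wnt5a, Wnt7b, Fzd5, Fzd6, Rspo3, Dvl1, Dvl2, Axin2, Ctnnb1, Tcf7l1, Lef1, Notum and Ccnd1), so their counts are uncertain. M21 matched 54165 of 54232 identifiers, and the 67 unmatched ones took up to 0.0297% of the counts in a library.

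Members and lists were chosen with earlier results of these data known. Genes were kept by filterByExpr over 4 groups (18016 genes, and 18461 without female mutant 3), scaled by TMM and tested with edgeR 4.0.16 (R 4.3.3) by quasi-likelihood, with sex and genotype as terms, or 1 mean per group for each sex and the interaction. Benjamini-Hochberg adjustment covered all tested genes, called at 0.05. CPM used TMM-scaled totals. The floor is 3 counts per library, for counting error only. Within groups the chi-square per degree of freedom was 9.86 to 44.2 without female mutant 3 and 151 and 170 with it, above counting error. The fits were tested on simulated data.

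Named members are the 2 of smallest p in each of 7 roles, Ctnnb1, Axin2, Lef1 and Tcf7l2, and the 3 of smallest p in each other comparison; of other pathway genes, the 3 of smallest p in each direction. Further members were named after their values were seen. Alternatives were RLE, library totals, DESeq2 1.42.0, limma-voom (limma 3.58.1) with and without library weights, no filter, 1 CPM in 6 libraries, each library left out, DESeq2 and weights without female mutant 3, thalamic, striatal or mitochondrial covariates, no sex term, and each sex alone. Both tissue covariates without female mutant 3 were chosen after seeing the data. Of 189 further genes in the lists 188 were matched.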

Additional observations from a re-analysis of the deposited data

Results flagged for a closer look

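Over 20 members, 40 groups of 6 libraries were examined for a library far from the other 5, and 9 held one. Chance alone gives about 1 in 20 independent groups. These groups share the same 12 libraries and most of the members were chosen by small p, so that rate is no baseline for them. Female mutant 3 was that library in 5 of the 9. Among all tested genes it gave the lowest value of 46.2% and the highest of 33.2%. It was lowest among mutants for Wnt9a (0.774 CPM, next 6.82), Ctnnb1 (315, next 411) and Tcf7 (0, next 3.04). It was highest for Apc (1177 CPM, next 749) and Sfrp1 (18.2, next 10.8). In wild types, male wild type 8 was lowest for Dkk3 (178 CPM, next 213) and Ccnd1 (36.0, next 46.2). Male wild type 13 was highest for Lgr6 (10.2 CPM, next 5.62), and female wild type 5 for Tcf7 (6.43, next 4.12). The mitochondrial share was 31.6% in female mutant 3 and 10.4% in male wild type 8, the highest of the wild types; its part in these values was not tested.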

How the results depend on the processing

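No paired analysis was possible because no animal number occurs in more than 1 group. In 27 of 28 alternatives, 0 members were called in every comparison they gave. Limma-voom with library weights called 1 over both sexes, Dkk3 (log2 fold change -0.34, adjusted p = 0.0412). Leaving out each of the 12 libraries in turn gave 0 called members in each of the 5 comparisons, and a member median over both sexes of -0.09 to -0.04. Of 33 named differences, 27 kept their sign under every alternative run and 6 did not, all of them near 0 beside their errors. Over both sexes, with striatal markers as a covariate Gsk3b was at 0.0016, and with female mutant 3 also left out Tcf7 was at 0.12 and Tcf7l2 at -0.032. Ccnd1 was at 0.025 by limma-voom, 0.10 by DESeq2 without female mutant 3, 0.13 with the mitochondrial share, and 0.058 and 0.043 with thalamic and striatal markers without female mutant 3. Axin2 was at -0.062 by library totals, and Lef1 at 0.14 by library weights with or without female mutant 3. Leaving out libraries gave -0.10 to 0.10 for Ccnd1, -0.032 to 0.058 for Axin2 and -0.23 to 0.12 for Lef1. The cause of these shifts was not tested. The median full width of a member's 95% interval was 0.777 on the log2 scale over both sexes, and more within 1 sex. Small differences may therefore go unseen, and members near the floor of female mutant 3 are limited by its depth.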
